A study of Homo sapiens with 6 samples.

Results

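The cytoskeletal mRNAs ACTB, ACTG1, PFN1 and TUBB were followed through 5 areas of the transcript in 2 libraries of small ribosomal subunit (40S) footprints from human cells. The members were chosen by name: the rows of the deposited footprint table whose Ensembl identifiers carry these symbols, which gave 4 of 9675 genes. Their identifiers are ENSG00000075624 (ACTB), ENSG00000184009 (ACTG1), ENSG00000108518 (PFN1) and ENSG00000196230 (TUBB). The cells were HEK293T, an embryonic kidney line, grown for 48 h and fixed with 0.3% formaldehyde for 5 min, and RNase I left the RNA that each complex covered. One library, here called eIF3b-bound, holds 40S complexes pulled down with a goat polyclonal antibody against eIF3b, a subunit of the initiation factor eIF3, and the other, 40S 1, holds 40S complexes with no pull-down. The series holds a second unselected 40S library, whose counts per gene and area were not analysed here. Neither carries a genetic change or a drug treatment, both were fixed in the same way, and the comparison sets 1 library against 1, so no difference below has a replicate check and no test was made. Intervals are exact Clopper-Pearson intervals at 95% unless stated otherwise. They cover counting error alone and treat each read as an independent count. Reads that carry no molecular identifier cannot be taken as independent molecules, so the intervals may be too narrow even for counting error.

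Beta-actin (ACTB) and gamma-actin (ACTG1) are the 2 actins of non-muscle cells. They build the filaments that shape and move the cell, and their proteins are nearly identical. Profilin (PFN1) binds actin monomers and feeds them to growing filaments, and TUBB is a beta-tubulin, which pairs with alpha-tubulin to form microtubules. Cells tune both systems at the mRNA: actin genes respond to the free monomer pool through the transcription factor SRF, and tubulin mRNAs are degraded during translation when free tubulin is plentiful. During initiation a 40S subunit carrying eIF3 and other factors is loaded at the cap, scans the leader (5′ UTR) and halts at the start codon, where the large subunit joins, so 40S footprints in the leader and at the start codon come from the stages before translation of the protein.

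ACTB lies on chromosome 7 from 5527148 to 5530601, ACTG1 on chromosome 17 from 81509971 to 81512799, PFN1 on chromosome 17 from 4945652 to 4948530 and TUBB on chromosome 6 from 30720352 to 30725422, by the RefSeq annotation of GRCh38.p14. Scanning subunits enter at the cap, so the annotated transcription starts are shown for the 3 genes present in the RefSeq promoter table, with 20 bases before the start in lower case and the first 10 transcribed bases in capitals. TUBB has 2 annotated starts, both on the plus strand, while ACTG1 and PFN1 are on the minus strand.
ACTG1, chr17:81512790-81512819: cgggggaggccgcggtcggtCTCAGTCGCC
PFN1, chr17:4948521-4948550: ggcggtgcgagggctgctgcACAGCGAGCG
TUBB, first start, chr6:30720332-30720361: ccctcccctctcctttctccCTCTCAGAAC
TUBB, second start, chr6:30721618-30721647: gcggcggcagctctttcctcAGACCCCCAG
The upstream TUBB start opens with a C and 4 more pyrimidines, the letters that open mRNAs with a terminal oligopyrimidine tract. Read in the direction of transcription, 4.07% of the 35116 promoters in the table open with C and at least 4 more bases that are each C or T. ACTG1 opens with 3 pyrimidines, and PFN1 and the downstream TUBB start open with A. The first 50 transcribed bases held 70% G or C in ACTG1, 78% in PFN1, and 62% and 74% at the TUBB starts, against a median of 60% over all promoters in the table (quartiles 50% and 70%). These letters describe the windows only, and which TUBB start the cells used was not analysed here.

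The eIF3b-bound library held 947733 footprints over all genes and 40S 1 held 834172. In 40S 1 the 10 genes with the most counts took 28.9% of all footprints, against 7.71% in the eIF3b-bound library. Of 8 genes listed as expressed in HEK293T, the 4 in the table (KRT8, NEFM, LIN28B and NES) each had at least 20 counts over both libraries together. Of 7 markers of other cell types, the 2 in the table (HBB and CD3E) had 0 counts in both libraries. Gene counts of the mRNA library were not used here, so footprints per mRNA molecule were not computed, and in such bulk libraries more cells with an mRNA and more footprints per cell cannot be told apart.

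Over all areas together the actins and profilin were higher in the eIF3b-bound library and TUBB was close to the typical gene. ACTB had 6988 eIF3b-bound footprints and 2276 in 40S 1, or 7373 against 2728 counts per 1e+06 footprints (CPM). ACTG1 had 6937 and 2522 footprints, PFN1 4431 and 1019, and TUBB 5124 and 2889. The log2 ratio of CPM, eIF3b-bound over 40S 1 with a prior count of 0.5, was 1.43 for ACTB (interval 1.37 to 1.50), 1.28 for ACTG1 (1.21 to 1.34), 1.94 for PFN1 (1.84 to 2.04) and 0.64 for TUBB (0.58 to 0.71). The median of 4175 genes with at least 20 counts over both libraries was 0.25. ACTB, ACTG1 and PFN1 exceeded that median by 2-fold or more, as did 18.2% of all genes, and 0 of the 4 genes fell short of it by 2-fold or more, as did 22.2%. ACTG1 passed by little, at 1.03 above the median gene, and with a minimum of 50 counts per gene it stood at 0.9988 and no longer passed. Among 308 genes with at least 1000 counts, a comparison added after the values were seen, the median was 0.86. There ACTB stood 0.58 and ACTG1 0.42 above it, and PFN1, at 1.08, was the only one of the 4 past 2-fold.

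**Figure D1:**
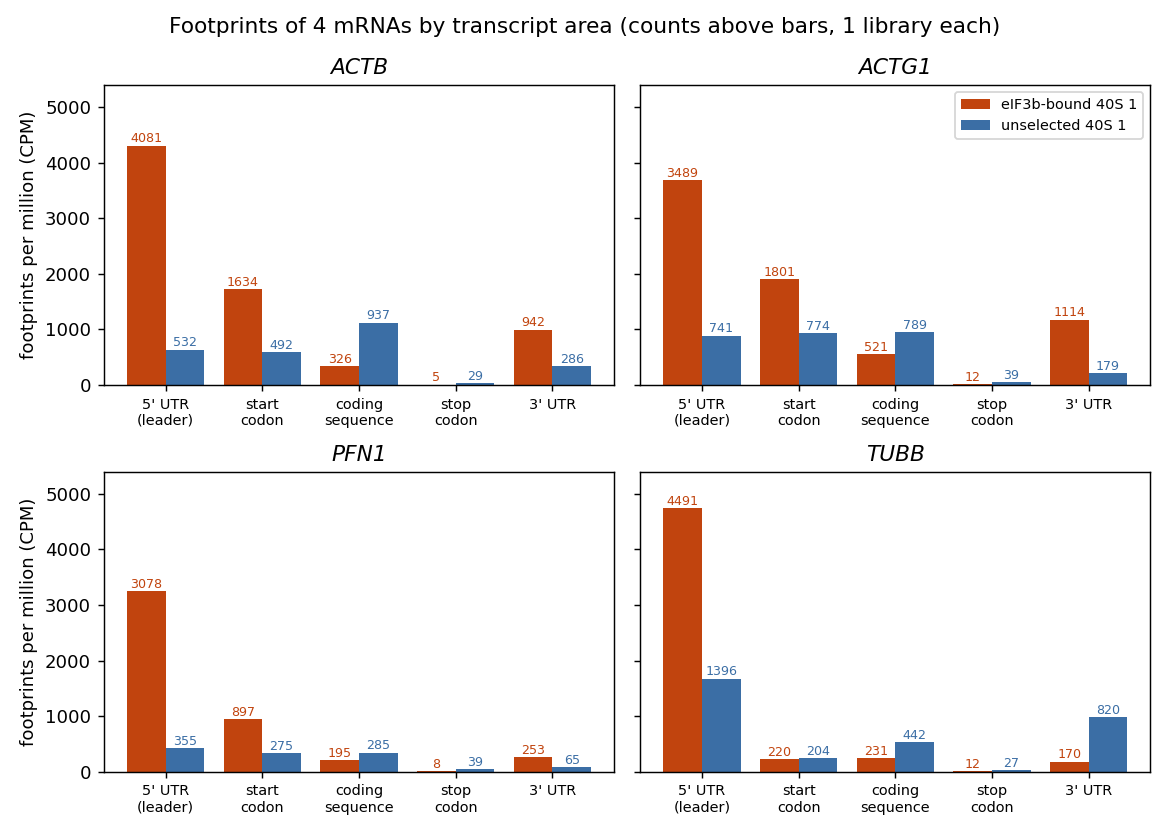
Footprints in CPM (vertical axis) of ACTB, ACTG1, PFN1 and TUBB in 5 transcript areas (horizontal axis), with orange bars for the eIF3b-bound library, blue bars for 40S 1 and raw counts above the bars. Leader bars are the tallest in every gene in the eIF3b-bound library, and TUBB is the only one of the 4 genes whose 3′ UTR bar is taller in 40S 1.

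Together the 4 mRNAs made up 2.48% of the eIF3b-bound library (interval 2.45 to 2.51%) and 1.04% of 40S 1 (1.02 to 1.07%). Within the leader, start codon or coding sequence taken alone the shares were closer. They held 3.15% of all eIF3b-bound leader footprints and 3.29% of those in 40S 1. At start codons the shares were 2.67% and 2.46%, and in coding sequences 0.780% and 0.925%. The 3′ UTR shares were furthest apart, with 1.93% of the eIF3b-bound footprints and 0.342% of those of 40S 1. When the 10 genes with the most counts in 40S 1 were left out of the totals, these 3′ UTR shares became 2.03% and 0.601%. The coding sequence shares then moved apart, to 0.802% and 1.23%.

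In ACTB, leader and start codon footprints were more frequent in the eIF3b-bound library, and coding sequence footprints were less frequent. The leader had 4081 footprints against 532 in 40S 1, which is a log2 ratio of 2.75 (2.62 to 2.89). The start codon area had 1634 against 492, a ratio of 1.55 (1.40 to 1.70). In the coding sequence the order turned, with 326 against 937 and a ratio of -1.71 (-1.89 to -1.52). That coding sequence ratio was below the lower quartile of the 2734 measured coding sequences, at -1.49. The stop codon area had 5 against 29 footprints, a ratio of -2.61 with a wide interval of -4.45 to -1.33. In the 3′ UTR 942 footprints stood against 286, a ratio of 1.53 (1.34 to 1.73). As shares of the gene, the leader took 58.4% of the eIF3b-bound ACTB footprints and 23.4% of those in 40S 1. The coding sequence took 4.67% and 41.2%, and the start codon area 23.4% and 21.6%. The 3′ UTR took 13.5% (12.7 to 14.3%) and 12.6% (11.2 to 14.0%), shares whose intervals overlap.

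ACTG1 had the same directions in every area with flatter values before the stop codon. Its leader had 3489 eIF3b-bound footprints against 741, a log2 ratio of 2.05 (1.94 to 2.17). The start codon area had 1801 and 774, a ratio of 1.03 (0.91 to 1.16), and the coding sequence 521 and 789, a ratio of -0.78 (-0.95 to -0.62). All these ratios were near the median gene of their area, at 2.27 for leaders, 1.22 for start codons and -0.64 for coding sequences. Scaled to the total of each area instead of the library, they were -0.15, -0.042 and 0.10, so their signs depend on the scaling. The stop codon area had 12 and 39 footprints, a ratio of -1.84 (-2.95 to -0.92). The 3′ UTR had 1114 and 179, a ratio of 2.45 (2.22 to 2.69), the highest 3′ UTR ratio of the 4 genes. Its 3′ UTR took 16.1% of the eIF3b-bound ACTG1 footprints and 7.10% of those in 40S 1, while the leader took 50.3% and 29.4%.

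PFN1 carried the highest leader ratio of the 4 genes, though not clearly above that of ACTB. The leader difference, ACTB minus PFN1, was -0.18 (-0.38 to 0.03, normal approximation), an interval that covers 0. It had 3078 eIF3b-bound leader footprints against 355, a log2 ratio of 2.93 (2.77 to 3.09), and the leader made up 69.5% and 34.8% of the gene. The start codon area had 897 and 275 footprints, a ratio of 1.52 (1.33 to 1.72). The coding sequence had 195 and 285, a ratio of -0.73 (-1.002 to -0.46), close to the median coding sequence and 0.15 when scaled to the area total. At the stop codon 8 stood against 39, a ratio of -2.40 (-3.78 to -1.35). That area took 3.83% of the PFN1 footprints of 40S 1 and 0.181% of the eIF3b-bound ones, the largest stop codon share among the 4 genes in 40S 1. The 3′ UTR had 253 and 65 footprints, a ratio of 1.77 (1.38 to 2.19). As a share of the gene the 3′ UTR did not stand higher with eIF3b, at 5.71% (5.04 to 6.43%) against 6.38% (4.96 to 8.06%).

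TUBB was dominated by its leader in both libraries, and its start codon and 3′ UTR ratios differed from those of the others. The leader held 4491 eIF3b-bound footprints and 1396 in 40S 1, or 87.6% and 48.3% of the gene. Its leader ratio of 1.50 (interval 1.41 to 1.59) was nevertheless the lowest of the 4, and 1963 of 2407 measured leaders had a higher one. The start codon area had 220 and 204 footprints, a ratio of -0.08 (-0.36 to 0.21), an interval that covers 0. That value depends on the scaling. It was -0.54 without the 10 genes with the most counts in 40S 1 in the totals, and -1.15 scaled to the area total. Across genes 92.7% of 1333 start codon areas had a ratio above 0, and 86 had one below that of TUBB. Set against the leader of the same gene, TUBB stood less apart. Its log2 difference, start codon minus leader, was -1.58 (-1.86 to -1.29, normal approximation). It was -1.41 in PFN1 (-1.66 to -1.16), -1.21 in ACTB and -1.02 in ACTG1. The median of 1006 genes was -1.06, with quartiles of -1.76 and -0.31. The coding sequence had 231 and 442 footprints, a ratio of -1.12 (-1.36 to -0.89), and the stop codon area 12 and 27, a ratio of -1.32 (-2.47 to -0.32). In the 3′ UTR 170 stood against 820, a ratio of -2.45 (-2.70 to -2.21), so that the 3′ UTR took 3.32% of the eIF3b-bound TUBB footprints and 28.4% of those in 40S 1. Scaled to the total of each area, the leader ratio of TUBB was -0.70, its sign turned.

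**Figure D2:**
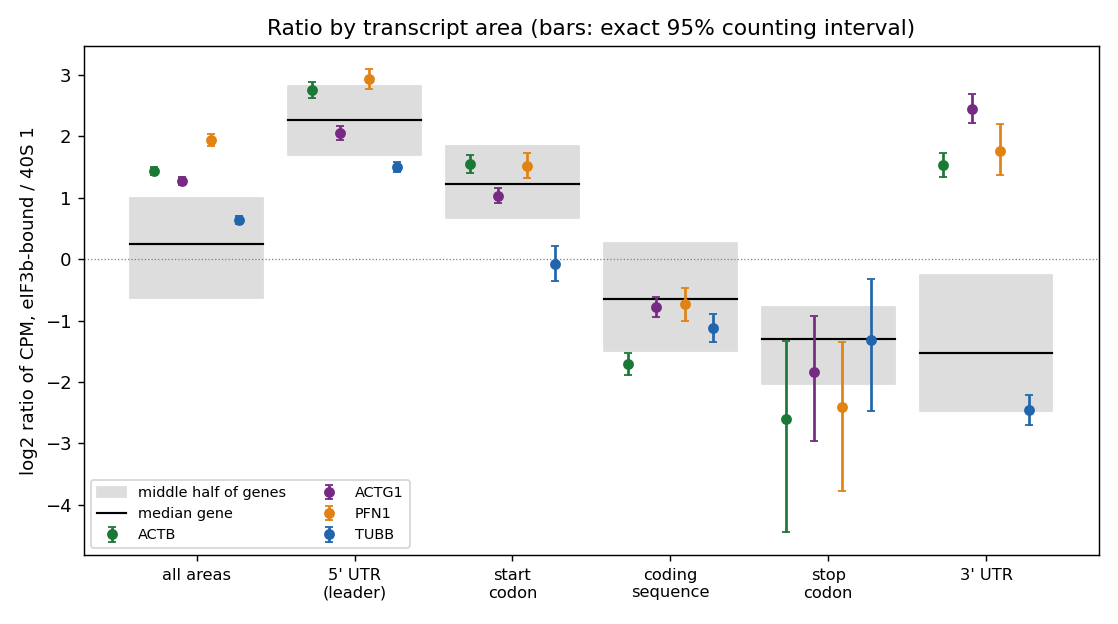
Log2 ratio of CPM between the eIF3b-bound library and 40S 1 (vertical axis) for all areas together and for each area (horizontal axis), with exact 95% counting intervals. Grey boxes span the quartiles of all measured genes and black lines mark the median gene; in the 3′ UTR, ACTB, ACTG1 and PFN1 (1.53, 2.45 and 1.77) lie far above the box and TUBB (-2.45) lies at its lower edge.

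Read against the median gene of each area, these mRNAs were all within 2-fold in the leader, and 3 of them were far above it in the 3′ UTR. In the leader 0 of the 4 genes were past 2-fold upward and 0 downward, against 14.7% and 12.8% of all measured leaders. At the start codon 0 lay above, against 14.6%, and TUBB alone lay below, against 12.5%. In the coding sequence 0 lay above, against 22.4%, and ACTB alone lay below, at 1.07 under the median gene, against 21.4%. Among genes with at least 1000 counts ACTB stood 0.84 under the median coding sequence, which is within 2-fold. At the stop codon 0 lay above, against 17.9% of 156 measured areas, and ACTB and PFN1 lay below, at 1.31 and 1.10 under the median on the log2 scale, against 20.5%. Each of these rests on fewer than 10 eIF3b-bound footprints. In the 3′ UTR, ACTB, ACTG1 and PFN1 lay above, by 3.06, 3.98 and 3.30 on the log2 scale, against 28.9% of 2741 measured 3′ UTRs. TUBB, at 0.92 under the median, was within 2-fold, while 23.9% lay below. Among 290 3′ UTRs of genes with at least 1000 counts the median ratio was -0.68, and the same 3 genes stood 2.22, 3.13 and 2.45 above it while TUBB stood 1.77 below it, now past 2-fold.

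The 3′ UTR values were then set against the coding sequence of the same gene, a comparison chosen after the values were seen, in which library totals and area lengths cancel. ACTB had 2.89 3′ UTR footprints for each coding sequence footprint with eIF3b bound, against 0.305 in 40S 1, a log2 difference of 3.24 (interval 2.98 to 3.50, from the normal approximation on the log scale). In ACTG1 the numbers were 2.14 and 0.227, a difference of 3.23 (2.95 to 3.51). In PFN1 they were 1.30 and 0.228, a difference of 2.50 (2.03 to 2.97). TUBB went the other way, with 0.736 and 1.86 and a difference of -1.33 (-1.66 to -1.002). The median over 2037 genes with both areas measured was -0.78, with quartiles of -1.94 and 0.49, and 42 genes lay above ACTB, 43 above ACTG1 and 95 above PFN1. Among 279 of these genes with at least 1000 counts, where the median was 0.26, there were 3 genes above ACTB (HNRNPA0, SRSF2 and H2AZ1, named after their values were seen), 4 above ACTG1 and 18 above PFN1. A ratio above 0 in the 3′ UTR with one below 0 in the coding sequence, the pattern of ACTB, ACTG1 and PFN1, was found in 10.7% of the 2037 genes and in 25.4% of those 279.

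Against the leader of the same gene the 3′ UTR gave another sign in ACTB and PFN1, but not in ACTG1 or TUBB. The log2 difference was -1.22 in ACTB (-1.45 to -0.99) and -1.16 in PFN1 (-1.58 to -0.74), 0.40 in ACTG1 (0.15 to 0.65) and -3.95 in TUBB (-4.21 to -3.70). In ACTB and PFN1 leader footprints were thus enriched with eIF3b more than 3′ UTR footprints were, and in ACTG1 less. The median over 1710 genes was -3.81, with 180 genes above ACTB, 171 above PFN1, 23 above ACTG1 and 901 above TUBB.

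**Figure D3:**
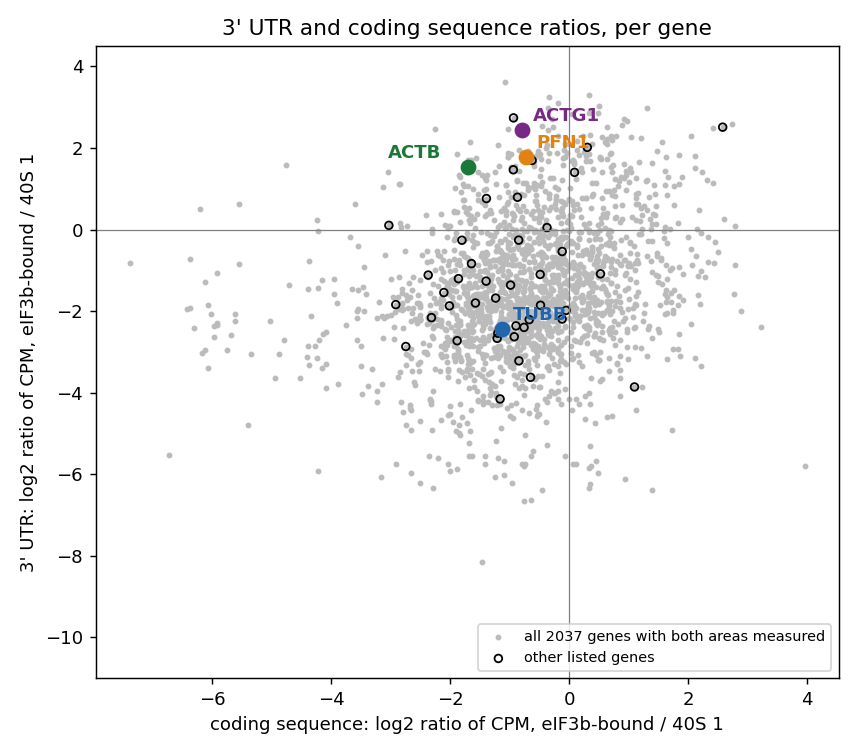
Each point is 1 of 2037 genes, with the log2 ratio of CPM between the eIF3b-bound library and 40S 1 in the coding sequence (horizontal axis) and in the 3′ UTR (vertical axis); open circles are other genes of the cytoskeletal and SRF lists. ACTB, ACTG1 and PFN1 sit in the upper left part, which holds 10.7% of the genes, and TUBB sits in the lower left.

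Set side by side, the actins differed in opposite directions before and after the start codon, while over all areas they differed little. Each value here is the ACTB share of the pair's footprints, a quantity in which the lengths of the areas are the same in both libraries. Levels of ACTB and ACTG1 within a library are not compared, since no area lengths were used here. Over all areas ACTB supplied 50.2% of the pair's footprints in the eIF3b-bound library (interval 49.3 to 51.0%) and 47.4% in 40S 1 (46.0 to 48.9%). Before and at the start codon its share was larger with eIF3b. In the leader it was 53.9% (52.8 to 55.0%) against 41.8% (39.1 to 44.6%), and in the start codon area 47.6% (45.9 to 49.3%) against 38.9% (36.2 to 41.6%). Beyond the start codon the order turned. In the coding sequence the ACTB share was 38.5% (35.2 to 41.9%) against 54.3% (51.9 to 56.7%), and in the 3′ UTR 45.8% (43.6 to 48.0%) against 61.5% (56.9 to 65.95%). At the stop codon it was 29.4% (10.3 to 56.0%) of 17 footprints against 42.6% (30.7 to 55.2%) of 68, intervals that overlap.

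The same comparison as a difference of log2 ratios, ACTB minus ACTG1, was 0.70 in the leader (interval 0.53 to 0.88, normal approximation), 0.51 at the start codon (0.32 to 0.70), -0.92 in the coding sequence (-1.17 to -0.68) and -0.92 in the 3′ UTR (-1.21 to -0.62). Each of these 4 intervals excludes 0, with leader and start codon above it and coding sequence and 3′ UTR below it. At the stop codon the difference was -0.76 with an interval of -2.37 to 0.84, which covers 0. Over all areas it was 0.16 (0.06 to 0.25), smaller in size than in any single area. For scale, the quartiles of the ratio over all measured genes were 1.70 and 2.82 in leaders and 0.66 and 1.83 at start codons. They were -1.49 and 0.26 in coding sequences and -2.48 and -0.26 in 3′ UTRs. In each of these areas the quartiles lie further apart than the actins do. Within ACTB the leader held 12.5 footprints for each one in the coding sequence with eIF3b bound, against 0.568 in 40S 1, a log2 difference of 4.46 (4.24 to 4.68). Within ACTG1 the numbers were 6.70 and 0.939, a difference of 2.83 (2.64 to 3.03). The median of 1767 genes was 3.10, so the actins lay on either side of it.

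**Figure D4:**
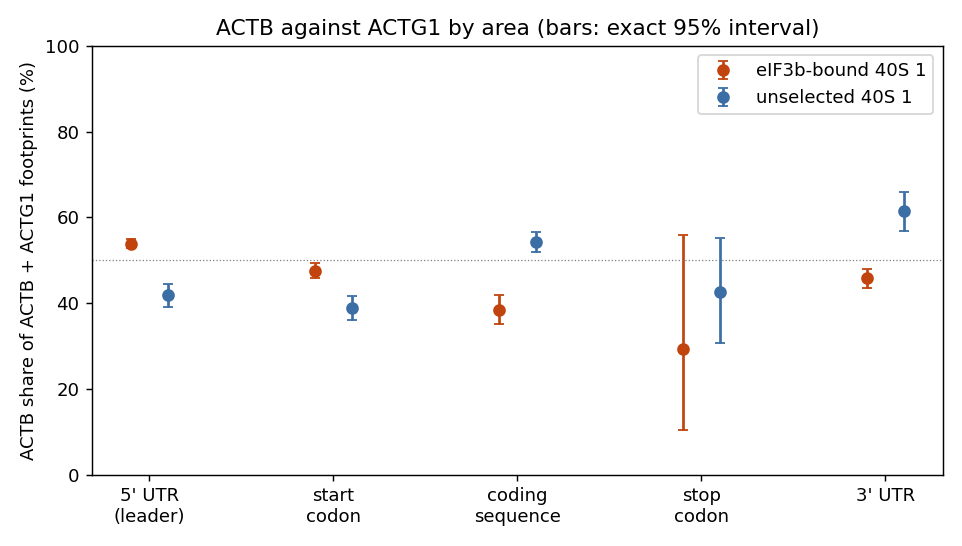
Share of ACTB in the summed footprints of ACTB and ACTG1 (vertical axis, percent) in 5 transcript areas (horizontal axis), orange for the eIF3b-bound library and blue for 40S 1, with exact 95% intervals. The orange points lie above the blue ones in the leader and at the start codon (53.9% against 41.8% and 47.6% against 38.9%) and below them in the coding sequence and the 3′ UTR (38.5% against 54.3% and 45.8% against 61.5%).

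The coding sequences of the actins resemble each other and those of other actins, and beta-tubulin genes resemble each other too, so reads from these areas could be split between genes, and how the authors treated reads with several matches was not stated in the labels. The gene name table lists 12 ACTB, 21 ACTG1, 10 PFN1 and 9 TUBB pseudogenes by symbol, and 0 of them are in the footprint table. Among close relatives of the actins, ACTA1, the skeletal muscle actin, had 21 eIF3b-bound footprints and 10 in 40S 1, of which 21 and 9 lay in the coding sequence. ACTA2, the smooth muscle actin, had 28 and 12, with 0 and 1 in the coding sequence. ACTC1, the cardiac actin, had 0 and 4. The share of actin reads with more than 1 match was not tested.

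In their area profiles the actins and profilin were nearer to each other than to TUBB. The distance between genes is the share of footprints that would have to move between areas to make the profiles equal, averaged over the 2 libraries. It was taken over the 532 genes that had 200 counts or more in both. ACTB and ACTG1 were 11.7% apart, ACTG1 and PFN1 13.5%, and ACTB and PFN1 15.3%. TUBB was 26.9% from PFN1, 35.1% from ACTB and 38.8% from ACTG1. For comparison, the median distance of a gene was 30.7% from ACTB, 34.5% from ACTG1, 33.1% from PFN1 and 38.9% from TUBB. TUBB was thus nearer to PFN1 than the median gene was. ACTG1 ranked 20 among the genes nearest to ACTB. Nearest to ACTB were PKM, a glycolytic enzyme, at 5.90%, PRDX1, a peroxiredoxin, at 6.19%, and ATP5MC3, a subunit of ATP synthase, at 7.18%. Nearest to ACTG1 were CFL1, the actin-severing protein cofilin, at 5.99%, PRDX1 at 7.41% and TXN, thioredoxin, at 7.95%. Nearest to PFN1 were S100A10, a calcium-binding family protein, at 5.19%, TUBA1B, an alpha-tubulin, at 5.20% and the histone variant gene H2AZ1 at 5.79%. Nearest to TUBB were EIF1AX, an initiation factor, at 5.50%, PTGES3, a co-chaperone, at 5.60% and TSC22D3, a glucocorticoid-induced gene, at 5.63%.

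TUBB was also set beside other tubulins. TUBA1B, which encodes the alpha partner, had 4093 eIF3b-bound footprints against 1326, a log2 ratio of 1.44 (1.35 to 1.53). Its 3′ UTR had 280 and 89 footprints, a ratio of 1.46, in the direction of the actins. TUBB4B, another beta-tubulin, had 872 and 354 footprints, a ratio of 1.12, with 18 and 19 in the 3′ UTR. TUBB2B had 379 and 113, a ratio of 1.56, with 26 and 3 in the 3′ UTR, and TUBG1, the gamma-tubulin of microtubule nucleation, had 285 and 175, a ratio of 0.52. Of these 4 genes, TUBG1 had a 3′ UTR ratio of -1.09, from 11 and 21 footprints, and TUBB4B one of -0.26. At the start codon TUBA1B had 1058 and 365 footprints and TUBB4B 73 and 24, ratios of 1.35 and 1.40 beside the -0.08 of TUBB. TUBB2B had a start codon ratio of 2.15 and TUBG1 one of 0.94. The nearest to TUBB was TUBB2A, named after its value was seen, at 0.53 from 20 and 12 footprints.

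Other genes of the cytoskeleton were read from lists by function, leaving the 4 genes out. Of 104 such genes 49 were in the table and 48 had at least 20 counts, with a median log2 ratio of 0.53 against 0.25 over all 4175 genes. Of these 48, 10 were above the median gene by 2-fold or more, 6 were below it by as much and 32 were within. These are 20.8% and 12.5%, beside 18.2% and 22.2% of all genes. By counting interval, a rule that calls deeply counted genes more readily, 43.8% lay above and 31.2% below, beside 32.9% and 33.1% of all genes. The counts for the single lists below are read against the same 18.2% and 22.2%, and with 4 to 11 genes a list they are given as a description. Of 11 genes of actin binding and turnover 3 lay above and 2 below, with a median of 0.89. Above were TMSB10, a thymosin that sequesters actin monomers, at 1.48, CFL1 at 1.27 and TMSB15A at 1.62, the last named after its value was seen. CFL1 passed by little, at 1.02 above the median gene. The depolymerising factor DSTN at 1.01 and TMSB4X at 0.89 were within. Of 9 crosslinker and myosin genes 2 lay above and 1 below, with a median of 0.53; TAGLN2 had 1.71, the myosin light chain MYL12B 1.38, EZR, which ties actin to the membrane, 0.93 and the myosin heavy chain MYH10 -0.86. Of 4 other actins and actin-related genes 0 lay above and 1 below, ACTR2 of the Arp2/3 complex at -1.08, while ACTR1B had 0.28, ACTA1 0.85 and ACTA2 1.00.

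Of 5 other tubulins 2 lay above and 0 below, beside 18.2% and 22.2% of all genes, with a median of 1.12. Of 6 microtubule-associated genes 1 lay above, the spindle protein TPX2 at 1.69, and 1 below, KIF11 at -0.94, named after its value was seen. DYNC1H1, the dynein heavy chain, at 0.95, MAPRE1 at 0.05 and DCTN1 at -0.49 were within. All 8 measured genes of the chaperonin and prefoldin, which fold new actin and tubulin, were within 2-fold of the median gene, including CCT7 at 0.83, CCT4 at 0.53, CCT3 at 0.29 and CCT8 at -0.32. Of 5 intermediate filament genes 2 lay above, 1 below and 2 within. Above were KRT10 at 2.43 and NES at 1.31, the latter named after its value was seen. NES rests on 15 and 5 counts, with an interval of -0.13 to 3.22. KRT8 at 1.23 and LMNB2 at 0.19 were within, and NEFM at -1.89 was below. Of 6 other textbook targets of SRF 1 lay above and 1 below, with a median of -0.37; the gene above was CCN2 at 1.40, named after its value was seen, and ACTA2 had 1.00, SRF itself -0.24, VCL -0.50 and CCN1 -1.14. In the 3′ UTR 12 of 42 measured genes of the cytoskeletal lists had a ratio above 0. So did 21.2% of all 2741, and 36.6% of the 290 in genes with at least 1000 counts. Among the genes named here TUBB2B had 2.74, KRT10 2.51, TAGLN2 2.01, CFL1 1.69 and TUBA1B 1.46, while DSTN had -2.19, TMSB4X -1.55 and TMSB10 -1.10. The TUBB2B value rests on 26 and 3 footprints. KRT10 had 0 leader and 0 start codon footprints in both libraries and a coding sequence ratio of 2.58, unlike the actins.

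**Figure D5:**
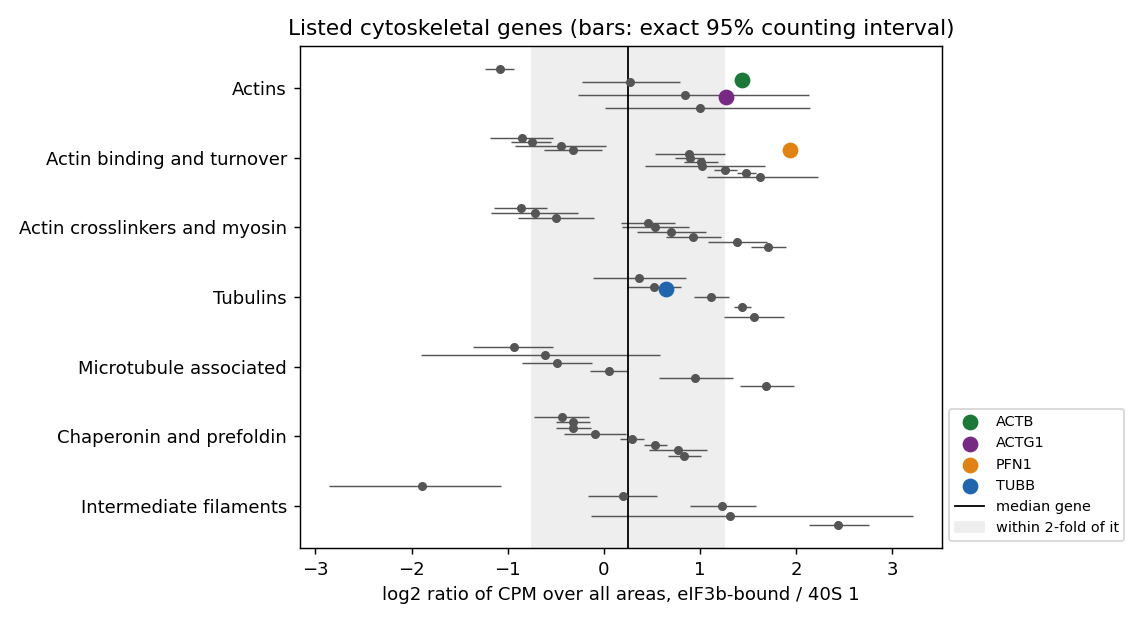
Log2 ratio of CPM over all areas (horizontal axis) for measured genes of 7 cytoskeletal lists (rows), grey points with exact 95% counting intervals, and ACTB, ACTG1, PFN1 and TUBB as coloured points. The black line is the median gene at 0.25 and the shaded band lies within 2-fold of it; 10 grey points lie to its right and 6 to its left.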

How the data were processed

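Whole-number counts of footprints per gene were deposited by the authors, per the file headers, for the eIF3b-bound library and 40S 1, divided over leader, start, coding, stop and 3′ UTR areas; 0 columns were left unmapped. The submitters' processing notes name GRCh38 and TopHat2 2.1.0, Bowtie2 2.2.6, Bowtie 1.2.2 and CASAVA 1.8, with no role for each. Per the labels, both libraries came from paired ends of which read 1 alone was analysed. Area borders, strand use and the treatment of reads with several matches: not given in the sources used here.

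Counts were scaled to CPM by each library's total, and log2 ratios took a prior count of 0.5 over genes, or areas, with 20 or more counts summed over the 2 libraries. Of the identifiers, 8322 matched a symbol and 1353 did not. Intervals came from scipy 1.17.1 (Python 3.11.15, pandas 2.3.3). The whole-gene log2 ratio and its interval were checked on simulated independent counts, which did not cover shares, differences or distances. The members, lists and rules were chosen with earlier results of these data known. Named are the 4 members, up to 4 genes with the most counts per list and the 3 nearest genes per member. Levels per nucleotide and 30 nt windows shared between genes were planned but not run, since no transcript sequence was used here. The other tables hold positional sums or means over genes, or values of another gene, and were not used here.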

Additional observations from a re-analysis of the deposited data

How the results depend on the processing

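Scaling moved whole-gene log2 ratios by 1 constant for all genes. Without the 10 genes highest in 40S 1 in the totals they were 0.97 for ACTB, 0.81 for ACTG1, 1.47 for PFN1 and 0.18 for TUBB. Without mitochondrially encoded genes they were 1.31, 1.15, 1.81 and 0.52, and with the median gene set to 0 they were 1.18, 1.03, 1.69 and 0.39, in the same order. With each area scaled to its own total, 5 area ratios changed sign, because that scaling moves leaders by -2.20, start codons by -1.08 and coding sequences by 0.88: the leaders of ACTG1 (-0.15) and TUBB (-0.70), the start codon of ACTG1 (-0.042), and the coding sequences of ACTG1 (0.10) and PFN1 (0.15). The 3′ UTR ratios of ACTB, ACTG1, PFN1 and TUBB kept their signs under all scalings tried. A prior count of 2 left all 34 values it was applied to inside their counting intervals, the ACTB minus ACTG1 differences included. Of the 48 listed cytoskeletal genes, counting intervals put 21 above and 15 below the median gene, or 43.8% and 31.2% beside 32.9% and 33.1% of all genes, against 10 and 6 past 2-fold. The share of genes with the 3′ UTR ratio above 0 and the coding sequence ratio below 0 was 25.4% with at least 1000 counts per gene, an alternative added after the values were seen, against 10.7%. No paired analysis was possible because the comparison sets 1 library against 1.

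Depth limits the stop codon areas most, where the 4 genes had 5 to 12 footprints in the eIF3b-bound library. With 1 library on each side of the comparison, and the second unselected 40S library not used here, no interval given covers variation between preparations.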
